A study of Mus musculus with 16 samples.

Results

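Cytosolic ribosomal protein genes were followed in the left ventricle of 16 C57BL/6 mice by bulk sequencing of total RNA, with 1 library per mouse. They were taken as every entry of the count table whose symbol begins with Rpl or Rps and a digit, together with Rpsa, Rplp0, Rplp1 and Rplp2. Entries with a -ps pseudogene symbol and the Rps6k kinases were left out, and at least 160 counts summed over the 16 libraries were required. This gave 83 genes of 24982 entries, 50 named for the large subunit and 33 for the small subunit. Knockout mice (n = 8, 4 males and 4 females) are labelled as null for Tln2 with Tln1 deleted in cardiac fibroblasts, and Tln2-null mice (n = 8, 4 males and 4 females) as null for Tln2 alone, so by the labels every mouse carried the Tln2 mutation. Tln1 and Tln2 encode talins, which tie integrins to actin. Every mouse was injected with tamoxifen on 5 days and then, after 2 weeks, infused with angiotensin II (AngII), a hormone that raises blood pressure, for 8 weeks. The labels used here do not name the Cre line or the ages, and no mouse without AngII was among the samples.

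Ribosomal proteins and ribosomal RNA together form the small and large subunits of the ribosome, and their mRNAs are among the most abundant in most cells. Many of these mRNAs begin with a terminal oligopyrimidine (TOP) motif, a C followed by a run of C and T, through which mTORC1 and the RNA-binding protein LARP1 control their translation. Growing heart muscle makes more ribosomes, and striated muscle also uses Rpl3l, a muscle-restricted relative of the large-subunit gene Rpl3.

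The first bases of the principal transcripts in GENCODE M21 (GRCm38) show the motif in some members and its absence in others. The first 4 sequences are members that begin with it, and Rack1 is the gene outside the members that followed the members' mean most closely. Rpl3 and Rpl3l are a paralog pair compared further on. Each line gives 30 bases of the transcript, 5′ to 3′, with the leading run of C and T in capitals.
Rpl32: CTTCCTTCTTCCTCggcgctgcctacgagg
Rpl4: CTTTTCCTgtgggagcagccgggtagagag
Rps2: CTTCTTCTTCTTCgggagaacacgtgagtc
Rps24: CTCTTTTCCTCCTCTCCagctccggcgccg
Rack1: CTTTTTCTCCacagggtcgtggtggcagcc
Rpl3: agggggcggagccatcacttggctttatat
Rpl3l: agctctgtcatttgacctctggtgcctggt

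Of the 80 members with a coding transcript in that annotation, 9 began with C and at least 4 further C or T (11.2%), against 2.18% of 12988 other genes. A run of this kind began within the first 10 bases in 24 members (30%) and in 16.4% of the other genes. Annotated starts can lie several bases from the start used in heart, so these shares describe the annotation and not the mRNA ends. The 250 bases before and 50 bases after the gene start (RefSeq, GRCm38.p6) were held for 63 members and 10705 other tested genes. The letters CCGGAAG, on either strand, stood in 36.5% of these member windows and 17.4% of the others. CTTTCC, read on the sense strand, stood in 31.7% and 14.3%, and CTTTTC on that strand in 19.05% and 10.4%. AAGATGGC on either strand was in 6.35% and 4.49%, and GGGCGG on either strand was as common in members (61.9%) as in other genes (63.7%).

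Library totals ran from 11161766 to 19221673 counts. In knockout hearts the deleted gene Tln1 averaged 273.6 ± 31.3 CPM (counts scaled to library size), against 289.0 ± 20.7 CPM in Tln2-null hearts (SD, n = 8 each), a log2 difference of -0.08 ± 0.07 (SE) that did not pass edgeR's quasi-likelihood test (adjusted p = 0.942). Tln2 had counts in every library despite the label, at 67.1 ± 2.32 CPM in knockout and 66.8 ± 7.25 CPM in Tln2-null hearts. The labels do not say which part of Tln2 is altered, so counts over the whole gene do not check it. Tln1 is transcribed in many cell types, so whole ventricle does not check a deletion limited to fibroblasts. Summed levels of 8 cardiomyocyte markers had medians of 44600 CPM in knockout and 42490 CPM in Tln2-null hearts. Summed levels of 8 fibroblast markers ran from 1160 to 2247 CPM in knockout hearts (median 1452) and from 1349 to 2636 CPM in Tln2-null hearts (median 1845), and all 8 markers had fold changes below 0. Some libraries stood apart: 4 females, 3 of them knockout, held Y-linked counts above 1% of the male mean. Arntl, a core clock gene, was at 27.1 CPM in knockout replicate 8 and 28.4 CPM in Tln2-null replicate 8 and between 3.66 and 8.44 CPM elsewhere. Hspa1a, a heat shock gene, was at 85.9 CPM in Tln2-null replicate 5 and between 2.88 and 8.91 CPM elsewhere. Values without these libraries stand beside some of the results below.

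Ribosomal protein transcripts were abundant in both genotypes. Of the 83 members, 70 averaged at least 100 CPM and 4 averaged under 20 CPM, with a median of 222 CPM, against 23.3 CPM over the 13775 genes tested. All 83 passed the filter on low counts. Most mouse transcripts of this family are short, and per kilobase of transcript the members had a median of 285 CPM and an interquartile range of 196 to 406 CPM per kb.

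Acidic stalk proteins, which recruit elongation factors to the large subunit, were high. Rplp1 (chr9:61913283-61914510, GRCm38.p6) was the highest member per length at 903 ± 73.0 CPM per kb over 16 mice. Rplp0, which anchors the stalk, had 524.7 ± 37.2 CPM per kb, and Rplp2, the partner of Rplp1, had 467.2 ± 30.2 CPM per kb. Rps2 (chr17:24718121-24721927), a protein of the mRNA entry region of the small subunit, followed Rplp1 with 740.6 ± 44.9 CPM per kb. Rps24 and Rps15, also of the small subunit, were among the 5 highest at 548.9 ± 43.3 and 527.7 ± 46.7 CPM per kb and did not differ from one another beyond their spread. Rpsa, a small-subunit protein also described as a laminin receptor, stood lower at 291.4 ± 19.9 CPM per kb.

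At the low end stood entries that are not ordinary ribosomal protein genes, along with genes whose counts may be incomplete. Rps19bp1, which encodes a protein that binds Rps19 and is not part of the ribosome, had 12.02 ± 1.12 CPM per kb. Rpl32l, annotated as a processed pseudogene in GENCODE M21, and Rps4l, annotated there as a non-coding transcript, had 5.18 ± 1.34 and 29.1 ± 7.38 CPM per kb. Rps15a was low only on the annotated transcript length: it had 28.5 ± 2.04 CPM per kb of transcript but 374.2 CPM per kb of coding sequence. Rpl34, a core large-subunit gene (chr3:130726827-130730398), was the lowest of all at 2.10 ± 0.57 CPM per kb.

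Paralogs were lower than their parent genes in 4 of the 5 pairs compared here. Rpl22l1 had 71.2 ± 9.31 CPM per kb and Rpl22 had 94.96 ± 5.65, while Rpl36al had 75.8 ± 5.11 and Rpl36a 193.2 ± 14.2 CPM per kb. The value of Rpl22 depends on its annotated length of 2048 nt, against a coding sequence of 384 nt. Per kb of coding sequence Rpl22l1 had 104.7 CPM and Rpl22 had 506.5 CPM, a much wider gap. Rpl7l1 stood at 31.8 ± 2.70 CPM per kb, far under Rpl7 at 342.2 ± 19.5, and Rpl37rt, a non-coding copy, at 38.2 ± 4.92 CPM per kb under Rpl37 at 152.3 ± 14.4. Rps27l, a p53-responsive relative of Rps27, had 129.8 ± 12.4 CPM per kb, and its parent lay below the count threshold. Rpl3l was the exception among these 5, with 274.2 ± 31.3 CPM per kb against 179.9 ± 24.0 CPM per kb for Rpl3.

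Further core genes lay below the count threshold altogether. Rps27 had 128 counts over all libraries, Rpl30 had 60 and Rpl26 had 0, while Rpl34 with 356 and Rpl32l with 558 counts lay just inside the threshold. The paralog entries Rpl39l, Rpl10l and Rps27rt had 42, 0 and 0 counts. Rps27 and Rps27rt have identical coding sequences, Rpl26 shares 99.5% of its bases with a processed pseudogene, Rpl30 99.7% and Rpl34 99.4%. These copies, the closest with an entry in the count table, held 0 or 1 counts. Gm5481, a pseudogene with 95.7% identity to Rpl30, held 535. The sources used here do not say how reads that match several places were counted, and the part of that step in these low counts was not tested.

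Near-identical copies were the rule in this family. Of the 83 members, 75 had at least 1 other annotated gene whose transcript showed at least 95% identity over at least 80% of the coding sequence, the median number was 5, and Rpl21 had 57. Some copies held counts of their own. BC004004, a copy of Rpl21 with 98.5% identity, held 64530 counts, against 78465 for Rpl21 itself. Rpl32l, with 558 counts, has 96.0% identity to Rpl32, which held 52059. BC004004 averaged 246.1 ± 26.7 CPM in knockout and 241.7 ± 36.5 CPM in Tln2-null hearts. For every member with copies, reads could have been split or dropped, so levels are uncertain as absolute values.

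**Figure D1:**
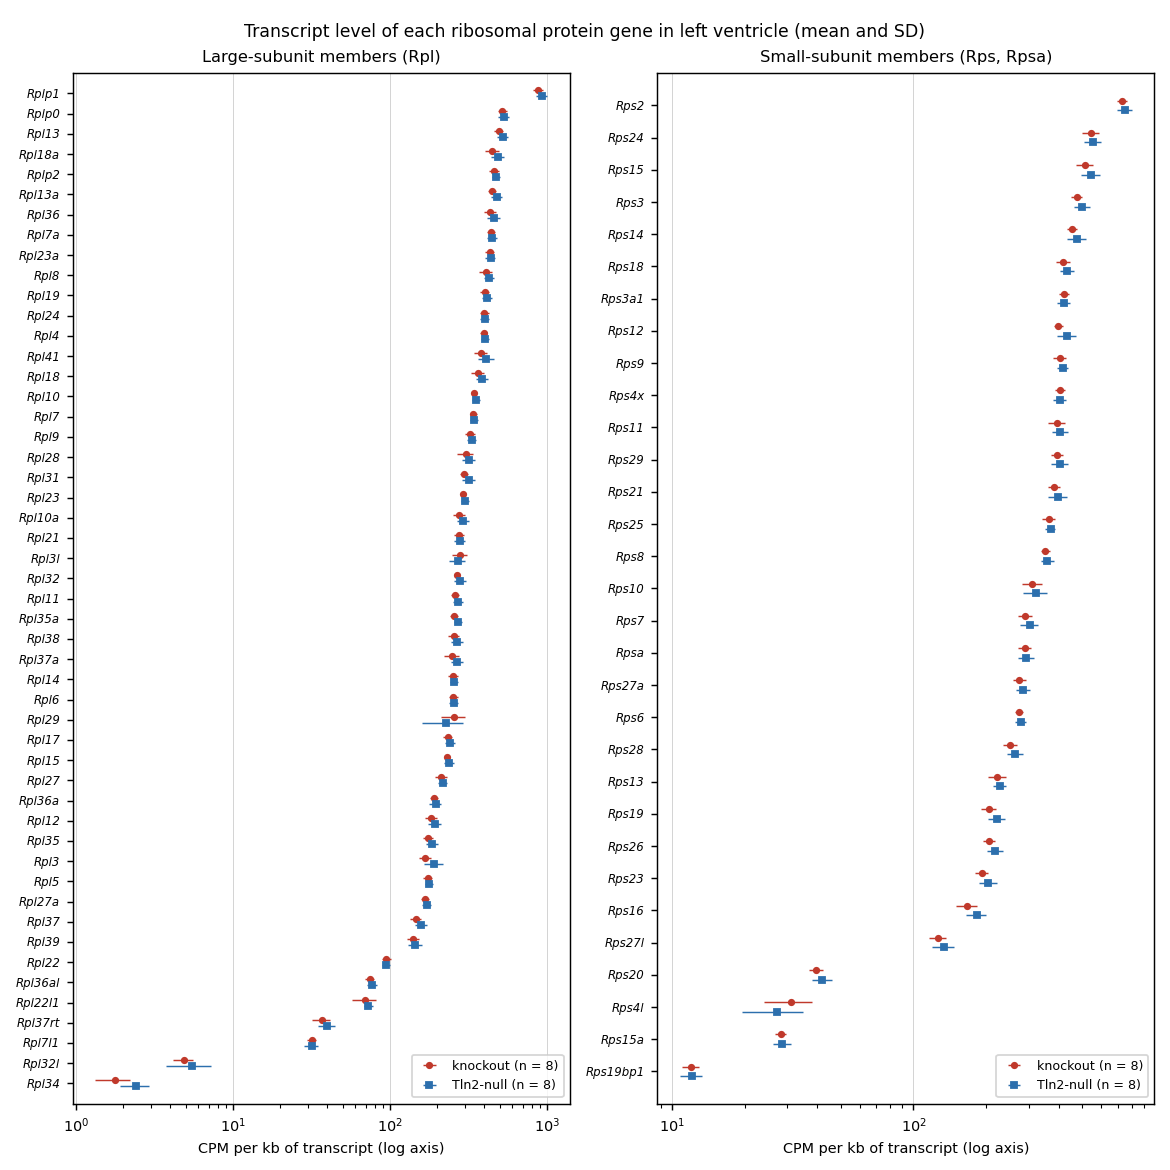
Levels of 81 of the 83 members, with the large subunit on the left and the small subunit on the right, in CPM per kb of transcript on a log axis, as mean and SD of 8 knockout mice (circles) and 8 Tln2-null mice (squares). The genotypes overlap for nearly every gene, Rplp1 and Rps2 lead, and Rpl34 and Rpl32l lie far below the rest.

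Members moved together from mouse to mouse. Over 3403 pairs of members the median Pearson correlation of log2 CPM across the 16 libraries was 0.66, and 95.9% of pairs were above 0. The median was 0.65 after genotype and sex means were removed, so the shared variation lay within groups. Pairs of the 13692 other genes had a median of -0.0012, but these genes were not matched to the members for level or transcript length. These correlations describe 16 libraries that share depth, scaling and RNA handling, and carry no test.

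Rpl19, a large-subunit protein, followed the mean of the other members most closely, with r = 0.98, and Rpl32 and Rpl11 both had r = 0.96 (Rpl11 is also known for binding Mdm2 when free of the ribosome). In all, 49 members were above 0.8 and 21 above 0.9. Of the 83, 6 were below 0.4, among them 3 paralogs, 2 core genes and Rps19bp1. Rpl3l was at -0.10, Rpl29 at 0.02, Rps19bp1 at 0.24, Rpl34 at 0.27, Rpl22l1 at 0.29 and Rpl7l1 at 0.36. Members whose annotated transcript begins with the TOP motif had a median r of 0.82, and so did those whose annotated transcript does not. Because annotated starts can differ from those used in heart, this split cannot separate TOP mRNAs from others.

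Rpl29 (chr9:106428889-106431568), a large-subunit protein, split the mice. In knockout hearts it ran from 126.6 to 208.9 CPM with a median of 195.9, and in Tln2-null hearts from 112.2 to 232.2 CPM with a median of 140.8. No mouse lay between 147.7 and 181.5 CPM, the widest inner gap of any member on the log2 scale (0.30), found after the values were seen. The lower set held 2 knockout and 5 Tln2-null mice, and the upper set 6 knockout and 3 Tln2-null mice. The log2 difference between genotypes was 0.18 ± 0.15 and did not pass (edgeR, adjusted p = 0.942). Rpl29 has 27 near-identical copies, and their part in this split was not tested.

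Rack1, a protein of the small subunit whose symbol lies outside the family's naming, had the highest correlation with the member mean of 11928 other genes at 2 CPM or more (r = 0.97). Fau, whose product yields the small-subunit protein eS30, ranked 2 (0.92). The proteasome genes Psmb3 (0.91) and Psmd13 (0.87) and the splicing genes Snrpd2 (0.88) and Snrpg (0.87) were also among the 10 most like, with Nenf (0.88), Med29 (0.88), Mea1 (0.87) and Atox1 (0.86). Cep85l (-0.86), Clasp2 (-0.84), Ncoa2 (-0.83), Slc35d1 (-0.83) and Map3k20 (-0.83) were the 5 least like. The 10 most like genes had a median transcript length of 910.5 nt and the 5 least like 4242 nt, against 2754 nt over all genes ranked.

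Transcript length moved with the members. The median member transcript was 777.5 nt long. The mean log2 level of 1136 other genes under 1000 nt minus that of 1893 genes over 5000 nt followed the member mean over the 16 mice with r = 0.78 (permutation p = 0.00052, adjusted 0.00468; rho = 0.76, permutation p = 0.00118, adjusted 0.0106). The adjustment covered 9 library measures, the other 8 being summed markers of cell types. None of these 9 correlations was among the planned tests, so their p-values are exploratory. Without knockout replicate 5 and Tln2-null replicate 3, the farthest on the length measure, r was 0.82, and within genotypes it was 0.92 in knockout and 0.69 in Tln2-null mice. Of the marker sums, that of pericytes and smooth muscle was the strongest (r = -0.60, permutation p = 0.0147, adjusted 0.0662; rho = -0.63, permutation p = 0.011, adjusted 0.0494; r = -0.65 without its 2 farthest mice). The fibroblast sum had r = 0.40 (permutation p = 0.127, adjusted 0.382; rho = 0.41, permutation p = 0.12, adjusted 0.217) and 0.0064 without its 2 farthest mice. The erythroid genes Hba-a2, Hbb-bs and Hbb-bt were at 0 in every library. The part of length or of cell content in the shared variation of the members was not tested.

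**Figure D2:**
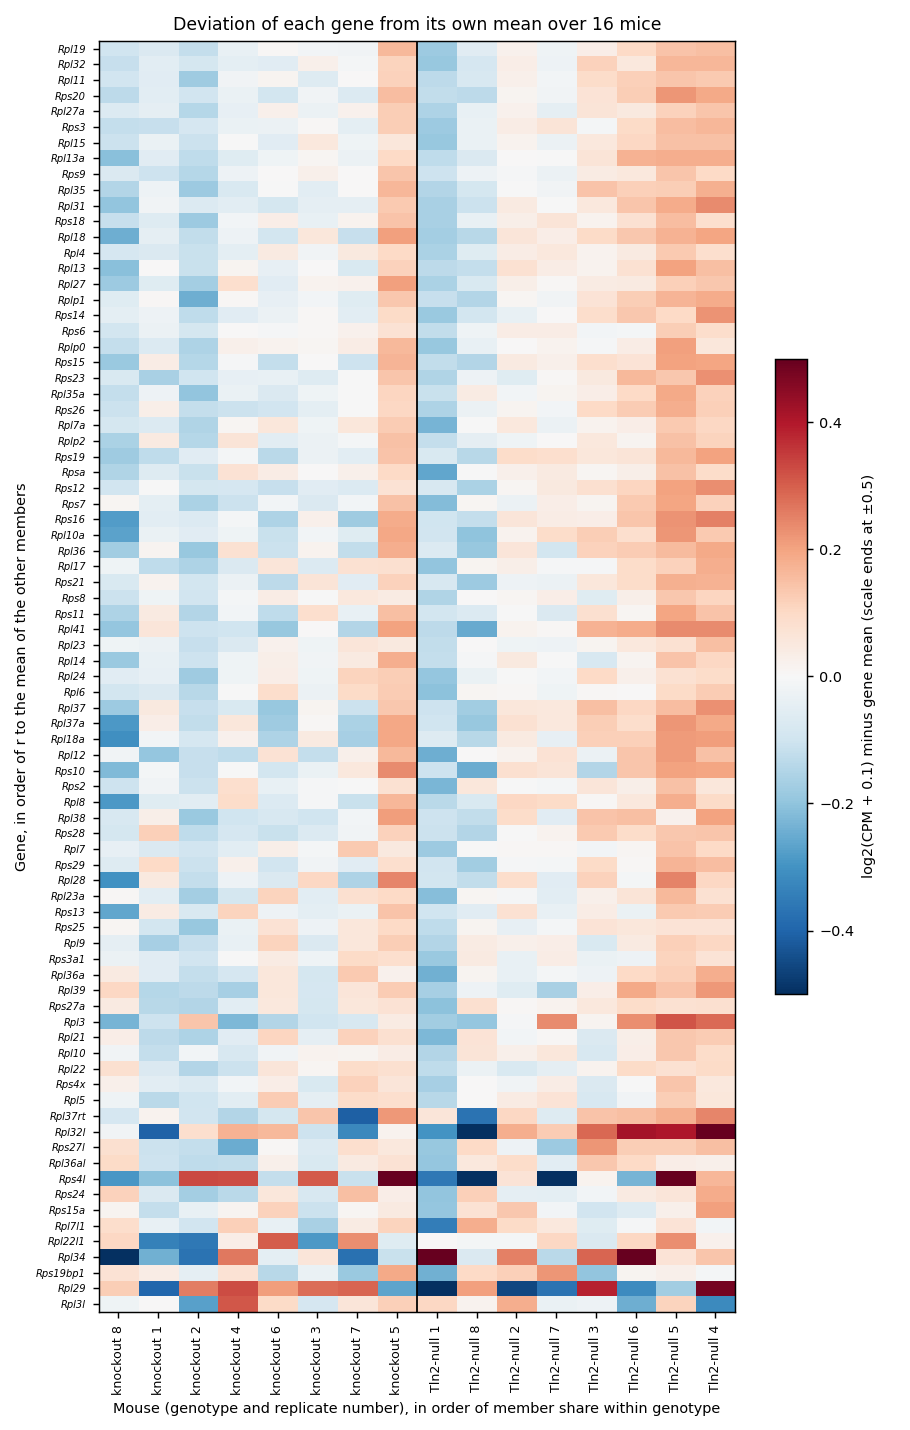
Each row is 1 of 81 members and each column a mouse, knockout on the left and Tln2-null on the right, ordered within genotype by the share of counts in the members. Colour gives log2(CPM + 0.1) minus the gene's mean over 16 mice. The upper rows change together from mouse to mouse while Rpl29, Rpl3l and a few others at the bottom do not.

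The share of all counts held by the members was 1.963 ± 0.0771% in knockout hearts and 2.052 ± 0.137% in Tln2-null hearts (SD, n = 8 each). Shares are of raw counts, without the TMM scaling used for CPM. In knockout hearts it ran from 1.879% to 2.134% with a median of 1.947%, and in Tln2-null hearts from 1.805% to 2.222% with a median of 2.048%. The knockout range lay within the Tln2-null range, and the lowest mouse of all, Tln2-null replicate 1, belonged to the group with the higher mean. The difference was -4.34% of the Tln2-null mean. The pooled SD of 5.40% is the spread of single mice and not the error of that difference, and the share was not tested. Males and females of each genotype also overlapped: the share averaged 1.92% in knockout males and 2.026% in Tln2-null males, and 2.006% in knockout females and 2.078% in Tln2-null females. In whole tissue, fewer cells of a type and less RNA per cell cannot be told apart.

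The balance between the subunits varied little from mouse to mouse. Large-subunit members held 1.168% of counts in knockout and 1.221% in Tln2-null hearts, and small-subunit members 0.795% and 0.831%. Their ratio was 1.468 ± 0.0159 in knockout and 1.469 ± 0.0102 in Tln2-null hearts, and in no mouse was it under 1.448 or over 1.496.

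**Figure D3:**
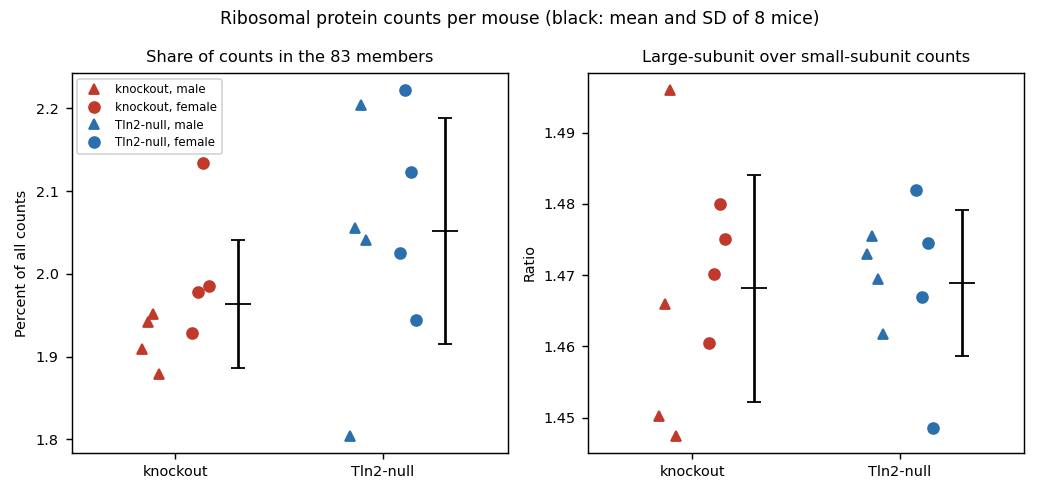
Left, percent of all counts held by the 83 members in each mouse. Right, ratio of large-subunit to small-subunit counts, with an axis that does not start at 0. Triangles are males, circles females, and black marks give the mean and SD of 8 mice. The genotypes overlap in both panels.

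No ribosomal protein gene passed the test between genotypes, and nearly all of them had slightly lower estimates in knockout hearts. With edgeR, 0 of 83 members were called at an adjusted p under 0.05, against 0% of all 13775 genes, and 2 members had an unadjusted p under 0.05, against 5.08% of all genes. DESeq2 also called 0 members, against 0.123% of all genes, with 3 at an unadjusted p under 0.05, against 5.13%. Limma-voom with sample quality weights called 0, against 0.0799%, with 11 at an unadjusted p under 0.05, against 7.85%. The log2 fold change, knockout over Tln2-null, was below 0 for 77 members and above 0 for 6, where 51.2% of all genes were below 0. The median was -0.05, a level change of -3.40%, against -0.0027 over all genes, and the median SE of a member was 0.06. Because members vary together, 77 genes on 1 side of 0 are not 77 separate observations.

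By subunit, 47 of 50 large-subunit members were below 0 (median -0.06) and 30 of 33 small-subunit members (median -0.05). Among the other short genes, 63.0% were below 0 with a median of -0.03, and long genes had a median of 0.02. Fibroblast marker sums, given above, also lay lower in knockout hearts, and the part of fibroblast content or of transcript length in the members' position was not tested. Leaving out 1 mouse at a time moved the members' median between -0.07 and -0.03. Knockout replicate 2 and Tln2-null replicate 5 brought it nearest to 0 when left out (-0.03 each, with 64 and 65 members below 0). Without the 4 females with Y-linked counts it was -0.08 with 78 members below 0, and without both replicates numbered 8 it was -0.06 with 76.

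Rpl3 (chr15:80077781-80083406), a large-subunit protein near the peptidyl transferase centre, showed one of the lowest p-values. It ran from 205.2 to 265.5 CPM in knockout hearts with a median of 224.7, and from 210.8 to 300.1 CPM in Tln2-null hearts with a median of 263.1. All but 1 knockout mouse lay below the Tln2-null mean, and the groups overlapped. Its log2 fold change was -0.19 ± 0.08 (edgeR, unadjusted p = 0.0303, adjusted p = 0.935).

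Rpl34 had the other unadjusted p under 0.05. It ran from 0.625 to 1.54 CPM in knockout hearts (median 1.11) and from 1.14 to 2.06 CPM in Tln2-null hearts (median 1.47), with overlap between the groups. The log2 fold change was -0.44 ± 0.18 (edgeR, unadjusted p = 0.0271, adjusted p = 0.926), the lowest of the members, and rested on 356 counts in all. Among the next members by p were Rps12, Rps19, Rps16, Rpl37 and Rpl13a, with log2 fold changes from -0.13 to -0.10 and adjusted p of 0.935 each in edgeR. Rps19, a small-subunit gene mutated in Diamond-Blackfan anaemia in humans, ran from 145.5 to 181.9 CPM in knockout and from 149.3 to 189.2 CPM in Tln2-null hearts.

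Members above 0 were few, and none passed. Rps4l had 0.18 ± 0.16, Rpl29 0.18 ± 0.15 and Rpl3l 0.05 ± 0.08, and Rps4x, Rpl7l1 and Rps3a1 were each within 0.01 of 0, all with adjusted p of 0.942 or more in edgeR. Rplp0, often used as a reference gene in PCR, averaged 706.9 ± 49.5 CPM in knockout and 718.1 ± 54.3 CPM in Tln2-null hearts, a log2 difference of -0.02 ± 0.06.

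**Figure D4:**
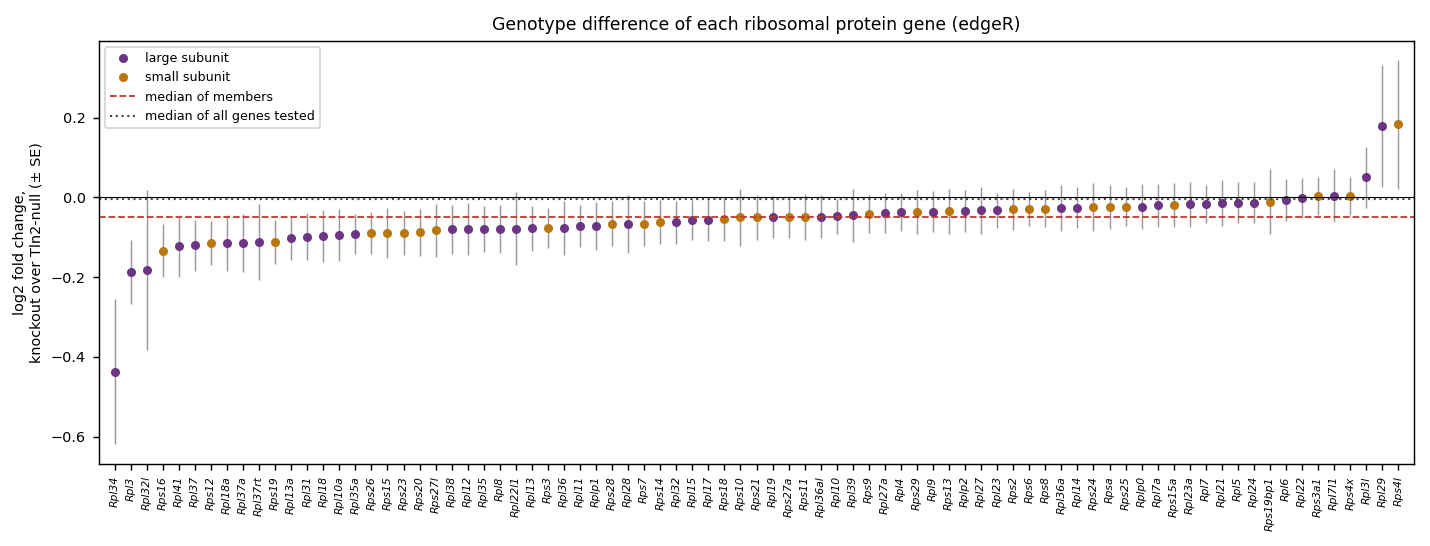
Log2 fold change of 81 of the 83 members, knockout over Tln2-null, with its SE from edgeR, in ascending order and coloured by the subunit in its name. The dashed line is the median of all 83 members (-0.05) and the dotted line that of all genes tested (-0.0027), and most points lie between -0.13 and 0.

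Within males, 68 members were below 0 (background 51.5%) with a median of -0.05, 0 were called by edgeR (0% of all genes) and 4 had an unadjusted p under 0.05 (background 6.07%). Among these were Rpl3 at -0.29 ± 0.11, Rpl10a at -0.19 ± 0.09 and Rps19 at -0.17, all lower in knockout males and with adjusted p of 0.775. Leaving out 1 mouse moved the male median between -0.11 (79 below 0) and -0.0050 (45 below 0), the second without Tln2-null replicate 5. Within females, 75 members were below 0 (background 50%) with a median of -0.05, 0 were called (0% of all genes) and 0 had an unadjusted p under 0.05 (background 3.31%). The female median moved between -0.10 (81 below 0, without knockout replicate 5) and -0.01 (50 below 0, without knockout replicate 2). The test of the difference between the sexes called 0 members (0% of all genes) and gave 0 at an unadjusted p under 0.05 (background 4.27%). Its lowest p belonged to Rps15a, a small-subunit gene, at 0.08 ± 0.07 in males and -0.11 ± 0.07 in females (difference 0.19 ± 0.10, edgeR adjusted p = 0.980). For Rpl3 the difference was -0.20 ± 0.16.

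No member passed the test between male and female hearts. With edgeR 0 members were called between the sexes, against 0.0871% of all genes, and 0 had an unadjusted p under 0.05, against 3.69%. DESeq2 and limma-voom gave 0 members for both counts. Over all 13775 genes DESeq2 called 21 and gave 502 at an unadjusted p under 0.05, and limma-voom 12 and 619. The log2 difference, male over female, was below 0 for 78 members, against 49.6% of all genes, with a median of -0.04. Without the 4 females with Y-linked counts only 21 members were below 0 and the median was 0.02. Rpl3l had the lowest p: it ran from 320.6 to 406.4 CPM in males (median 339.4) and from 262.8 to 372.3 CPM in females (median 320.6), a log2 difference of 0.13 ± 0.08 (unadjusted p = 0.111). The groups overlapped.

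The X-linked members showed no female excess that passed the test. Rpl10, a late-joining large-subunit protein, averaged 281.1 ± 18.7 CPM in males and 294.0 ± 6.70 CPM in females (log2 difference -0.06 ± 0.04). Rpl39 was at -0.07 ± 0.07, Rpl36a at -0.05 ± 0.06 and Rps4x at -0.02 ± 0.05.

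Each library also carries a running number in its title, from 1 to 18, whose meaning the labels do not give. Along it 1 member was called by edgeR, against 6.34% of all genes, and 15 had an unadjusted p under 0.05, all with higher levels at higher numbers (background 24.2% in either direction and 11.7% in that one). Of the 83, 54 were above 0, against 49.2% of all genes, with a median of 0.04 per 10 numbers. Leaving out 1 mouse moved that median between 0.01 and 0.07, with 16 to 38 members below 0, against 29 with every mouse. The count of 16 came without Tln2-null replicate 8, and without both replicates numbered 8 the median was 0.10 with 5 members below 0.

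The called gene was Rpl22l1 (chr3:28805508-28807424), a paralog of the large-subunit gene Rpl22 that can replace it in ribosomes. In knockout hearts, in order of title number, it had 30.03, 29.7, 31.2, 38.9, 36.5, 46.9, 44.7 and 40.9 CPM, so the 3 earliest knockout libraries were the lowest of all 16. In Tln2-null hearts, in the same order, it had 38.06, 37.7, 36.1, 38.6, 44.7, 40.8, 40.8 and 37.8 CPM (median 38.3), without a steady rise. The rise, fitted over both genotypes together, was 0.28 ± 0.07 log2 per 10 numbers (edgeR, adjusted p = 0.032). The call was lost when knockout replicate 1, 2, 7 or 8 was left out (0.24, 0.25, 0.24 and 0.30) and without the 4 females with Y-linked counts (0.24). DESeq2 called 5 members, against 10.1% of all genes, and limma-voom 3, against 8.09%. Next by p were Rpl21 at 0.16 ± 0.05 (adjusted p = 0.0511), Rps27a at 0.14 ± 0.04 (0.0533) and Rps24 at 0.16 ± 0.05 (0.0637), none of which passed in edgeR. With the title number as a covariate the genotype median of the members was -0.07, with 80 below 0 and 0 called.

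Paralogs were compared with their parent genes, since several can stand in for one another in the ribosome. Pairs were Rpl3l with Rpl3, Rpl22l1 with Rpl22, Rpl36al with Rpl36a and Rpl7l1 with Rpl7, 4 in all, each over 16 mice on log2 CPM. Rpl3l and Rpl3 were the only pair of the 4 with r below 0 (r = -0.52, permutation p = 0.0403, adjusted 0.0403), with rho = -0.37 (permutation p = 0.156, adjusted 0.184). Within genotypes r was -0.60 in knockout and -0.49 in Tln2-null mice. Without knockout replicate 4 and Tln2-null replicate 4, the libraries farthest in Rpl3l, it was -0.30, weaker than over all 16 mice.

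The other pairs moved in the same direction, as most pairs of members did, with a median r of 0.66 over all 3403. The permutation tests given here ask whether r differs from 0, not whether it differs from that median. Rpl36al, a close relative of Rpl36a, had r = 0.70 with it (permutation p = 0.00318, adjusted 0.0127; rho = 0.55, permutation p = 0.0318, adjusted 0.111). Rpl22l1 had r = 0.55 with Rpl22 (permutation p = 0.033, adjusted 0.0403; rho = 0.49, permutation p = 0.0553, adjusted 0.111). Rpl7l1, which in yeast corresponds to an assembly factor and not to a mature ribosomal protein, had r = 0.54 with Rpl7 (permutation p = 0.0379, adjusted 0.0403; rho = 0.35, permutation p = 0.184, adjusted 0.184). Without their 2 farthest libraries these values were 0.46, 0.33 and 0.20, and none of them passed. Leaving out the farthest libraries narrows the range, here and for Rpl3l. How far these relations rest on those libraries therefore cannot be told. No rho passed after adjustment.

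Rpl3l (chr17:24727826-24736143) exceeded Rpl3 per annotated transcript length in every mouse, but not by every measure. It made up 62.2 ± 4.32% of the pair in knockout hearts, from 53.5% to 68.8% with a median of 62.5%, and 58.4 ± 5.52% in Tln2-null hearts, from 50.1% to 64.9% with a median of 58.4%. The groups overlapped. The difference of 3.81 percentage points did not pass a two-sided exact permutation test within sex (p = 0.132, 4900 exchanges), a comparison chosen after the data were seen. The annotated median length of Rpl3l, 1204 nt, is shorter than its coding sequence of 1221 nt. Per coding length the share was 59.3 ± 4.42% in knockout and 55.4 ± 5.61% in Tln2-null hearts (difference 3.88 points, exact permutation p = 0.131), and it was under 50% in Tln2-null replicates 4 (46.99%) and 6 (49.2%), as it also was by undivided counts. Leaving out 1 mouse at a time gave 2.62 to 5.06 points, and only without knockout replicate 2 was the exact permutation p under 0.05 (5.06 points, p = 0.0478).

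**Figure D5:**
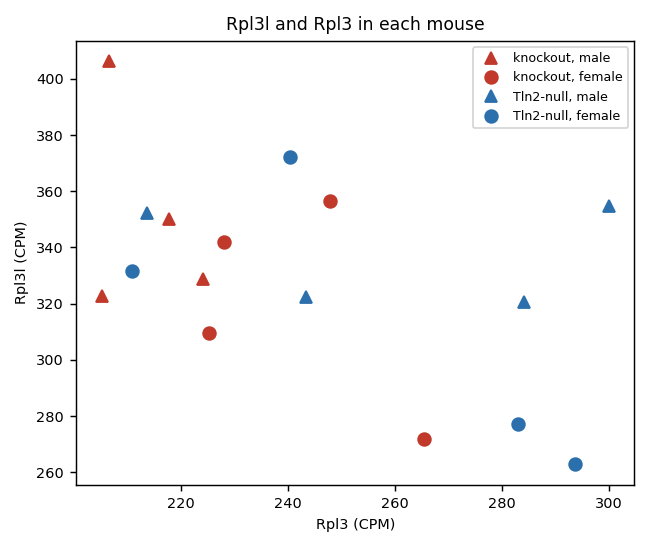
Rpl3l against Rpl3, both in CPM, in each mouse, with triangles for males and circles for females. Neither axis starts at 0. Mice with high Rpl3 tend to have lower Rpl3l (r = -0.52 on log2 CPM), and the genotypes overlap on both axes.

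Genes around the ribosomal proteins were read from lists of the pathway. Of the 3 ribosomal protein genes outside the naming rule, all were below 0 between genotypes and 0 were called by edgeR. Rack1 averaged 395.3 ± 23.2 CPM in knockout and 412.6 ± 34.7 CPM in Tln2-null hearts (log2 difference -0.06 ± 0.06). Translation factors and other TOP-type mRNAs gave 7 above and 10 below 0 of 17, with 0 called and a median of -0.0075. The lowest p among them belonged to Pabpc1, the cytoplasmic poly(A)-binding protein, at 150.7 ± 14.3 CPM in knockout and 172.6 ± 11.2 CPM in Tln2-null hearts (-0.20 ± 0.06, edgeR adjusted p = 0.559).

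Ribosome production genes lay on both sides of 0. For rRNA transcription and ribosome assembly, 29 were above and 27 below 0 of 56, and for the control of ribosomal protein synthesis 16 above and 12 below of 28, with 0 called in both and medians of 0.01. Ubtf, a factor of RNA polymerase I, had -0.13 ± 0.05, and Gabpa, an ETS factor, had 0.15 ± 0.06, both with adjusted p over 0.9 in edgeR. Of 8 genes that link free ribosomal proteins to p53, 5 were above and 3 below 0, and of 12 ribosome quality control genes 8 were above and 4 below, with 0 called. Cdkn1a, the p53 target p21, averaged 52.6 ± 18.01 CPM in knockout and 78.6 ± 21.4 CPM in Tln2-null hearts (-0.58 ± 0.20, edgeR adjusted p = 0.799).

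Along the title number the same lists held called genes. In the assembly list edgeR called 5 genes higher and 1 lower of 56, against 6.34% of all genes called. Polr1e, a subunit of RNA polymerase I, rose by 0.61 ± 0.07 log2 per 10 numbers (edgeR, adjusted p = 0.00068), and Wdr75 and Rsl1d1, nucleolar factors, rose by 0.27 ± 0.06 and 0.22 ± 0.06. Taf1c, a factor of RNA polymerase I initiation, fell by 0.30 per 10 numbers. In the control list Eif4e, the cap-binding protein, and Larp1b, a relative of the TOP-binding protein Larp1, were called higher (0.20 and 0.23), and Max and Tsc2 lower (-0.33 and -0.22). Of the translation factors Eif3e was called higher (0.21). Between the sexes edgeR called 0 genes of any of these lists.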

How the data were processed

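The authors deposited whole read counts per gene symbol, used here, and a normalized signal for 16405 genes, which equalled those deposited counts divided by 1 size factor per library. Per the submitters' processing notes, DRAGEN, DESeq2 and the mm10 build were used, and the treatment of multiply mapping reads is not stated there. Libraries were made with a directional kit, per the labels' protocols.

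The test was edgeR 4.0.16, run under R 4.3.3 (filterByExpr by genotype and sex, TMM, quasi-likelihood, genotype and sex as terms) on 13775 genes, with Benjamini-Hochberg adjustment over all of them and a threshold of 0.05. The title number entered as a linear term, and a cell-means model of the 4 genotype-sex groups gave the within-sex tests. SE are worked back from the F statistic. The median SE of 0.06 over members is the precision this depth and number of mice allowed. DESeq2 1.42.0 and limma-voom (limma 3.58.1), other scalings and filters, and libraries left out were alternatives. Wherever limma-voom is named, it was run with sample quality weights. The fits were checked on simulated data. Correlations used 100000 permutations. Copies were found with BLAST+ 2.17.0 among GENCODE M21 transcripts, gene positions and promoters came from RefSeq GRCm38.p6, and lengths are medians over annotated transcripts. Replicates are separate mice, numbered here in record order.

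Named members were the paralog-like ones and their parents, the stalk genes, Rpsa, the 5 highest and 5 lowest per kb, the 8 of lowest p between genotypes, between sexes and for the title number, the 4 for the interaction, the X-linked ones, those nearest the count threshold, the most alike and least alike genes, and up to 4 per pathway list. Rpl29, Rpl19, Rpl11, Rpl32, Rpl4 and Rps3a1 and the clock and heat shock genes were named after their values were seen. The members, lists and tests were chosen with earlier results of these data known. Some genes that this rule takes are not reported here by name, and the figures by gene leave them out, while counts and medians cover all 83 members.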

Additional observations from a re-analysis of the deposited data

Results flagged for a closer look

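Dixon's test at the 95% level was applied to the highest and lowest mouse of each group of 8 for 42 named members and the member shares, 90 groups in all, and chance alone marks about 1 group in 20. It marked 4. Knockout replicate 5 held the highest share of counts in the ribosomal protein genes among knockout mice, 2.134%, with the next at 1.985%. Tln2-null replicate 1 was far below the other Tln2-null mice for Rps2 (630.3 CPM, next 733.4 CPM), Rps27a (172.7 CPM, next 200.1 CPM) and Rpsa (429.6 CPM, next 513.6 CPM). Without knockout replicate 5 the median log2 fold change of the members between genotypes was -0.07, and without Tln2-null replicate 1 it was -0.07.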

How the results depend on the processing

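Between genotypes and between sexes 0 members were called under every scaling, filter, tool and left-out library run. No paired analysis was possible because the labels give no replicate number shared between groups. For the title number, where 1 member was called, DESeq2's size factors gave 2, a filter of 1 CPM in 8 samples 3, DESeq2 5, limma-voom 3, the set without the 4 females with Y-linked counts 0, and leaving out 1 library 0 to 4. Paralog correlations on residuals after genotype and sex were -0.470 for Rpl3l and Rpl3 and 0.529 for Rpl7l1 and Rpl7, neither past the threshold, and without the 2 farthest libraries -0.30, 0.33 (Rpl22l1), 0.46 (Rpl36al) and 0.20 (Rpl7l1). The Rpl3l share difference ran from 2.62 to 5.06 points when 1 mouse was left out.

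Between sexes, leaving out the 4 females with Y-linked counts turned most of the members: 21 were below 0 in place of 78, and the median was 0.02 in place of -0.04. Among the named members, signs also turned for fold changes close to 0, none of them called. Between genotypes Rpl22 was at 0.0018 with the stricter filter, Rpl7l1 at -0.030 (limma-voom) and -0.045 (title number as covariate), and Rps4x at -0.022 and -0.030 under the same settings. Without the 4 females Rpl3l was at -0.025, Rps19bp1 at 0.0014, Rps4x at -0.011 and, between sexes, Rps4x at 0.020. Leaving out 1 mouse gave ranges of -0.015 to 0.026 (Rpl22), -0.038 to 0.012 (Rpl7), -0.039 to 0.035 (Rpl7l1), -0.041 to 0.030 (Rps19bp1), -0.016 to 0.032 (Rps4x) and, between sexes, -0.039 to 0.0082 (Rps4x). The cause of these shifts was not tested.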
